A study of Mus musculus and Rattus norvegicus with 37 samples.

Results

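Polyadenylated RNA was measured in the livers of wild-type (WT) mice and of floxed mice, the control littermates of liver-specific Sirt1 knockout animals (L-Sirt1 KO), which carry the floxed Sirt1 allele without its deletion in the liver. The livers were chosen by the names of their columns: 6 named floxed and 7 named WT, 13 of the 37 livers of the whole series. The series asks how inhibition of the microRNA family miR-29 changes liver lipid metabolism, with and without hepatic Sirt1. It treats WT and floxed mice as 1 control group. As grounds the study names the small floxed saline group. It also reports no significant difference in circulating cholesterol or triglyceride between WT and floxed mice. The question here is which genes differed between these pooled kinds of mice, once treatment was taken into account.

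The backgrounds differed in more than the allele. All 13 were female C57BL/6J mice on a chow diet, killed in the fed state. The WT mice were 9 to 11 weeks old, and the floxed mice, littermates of the knockout animals, were 15 to 20 weeks old. Each mouse had received 1 subcutaneous injection at Zeitgeber time 3, that is, 3 h after lights on, and its liver was taken at day 7. The injection held saline (3 WT and 2 floxed mice) or LNA29 (4 WT and 4 floxed mice), a mix of 2 locked nucleic acid inhibitors at 20 mg/kg each. A further 1 floxed saline mouse had been left out by the authors. The mouse work took place at 2 institutions, and which mice were kept at which is not given in the sources used here. Age, litter, colony and the floxed allele therefore cannot be told apart, and "floxed minus WT" below names the sum of all of them.

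The inhibitors were designed against the mature miR-29 strands, which are shown because 8 of the 13 livers had received them. RefSeq (build GRCm38.p6) gives these mature sequences, with the seed, bases 2 to 8, in capitals.

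mmu-miR-29a-3p: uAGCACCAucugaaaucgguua

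mmu-miR-29b-3p: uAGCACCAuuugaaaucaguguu

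mmu-miR-29c-3p: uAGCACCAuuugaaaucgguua

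The seed is the same in all of them. A microRNA pairs through its seed with sites in messenger RNAs and lowers their level, and collagens and other matrix genes are among the best known targets of miR-29. Sirt1 is an NAD-dependent protein deacetylase. In a floxed allele, short recombination sites flank an exon, and the gene is read as usual until Cre recombinase removes that exon. In the fed liver, insulin favours glycolysis and the synthesis of lipid and cholesterol, whereas fasting favours fatty acid oxidation, amino acid breakdown and glucose output, so that many liver genes depend on age, feeding and hormones.

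Sirt1 itself did not separate the backgrounds. Its values, in DESeq2-normalized counts (estimated gene counts divided by a size factor per library), were 509 to 699 with a median of 596 in WT and 493 to 675 with a median of 604 in floxed livers. The log2 difference, floxed minus WT, was -0.02 ± 0.10 (SE), with an adjusted p of 0.907 in limma and an exact permutation p of 0.816. The gene lies on chromosome 10 at 63319005 to 63381704 (GENCODE annotation of GRCm38), and the libraries labelled Sirt1KO, in a table normalized on its own, held 535 to 617. These gene-level counts overlap between all genotypes, and counts over single exons were not used here. Nnt, a mitochondrial transhydrogenase that is damaged in the C57BL/6J strain, had a mean of 2774 over the 13 livers and a difference of 0.01 ± 0.05 (adjusted p = 0.94 in limma).

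The libraries held 57 to 61.7 M normalized counts, and their depth, estimated from the value of 1 read, was 44.2 to 77.9 M reads. Hepatocyte markers were abundant in all 13, and the summed level of 9 hepatocyte markers was 7118000 to 8309000 in WT and 5222000 to 8952000 in floxed livers. On the first principal component, which held 23% of the variance, WT LNA29 replicate 4 lay farthest out (-47.1). Floxed LNA29 replicate 3 (43.7) and floxed saline replicate 5 (37.3) lay far out on the other side. WT LNA29 replicate 4 also had the highest level of Marco, a macrophage receptor chosen after its values were seen. Marco was at 8851 there, against 278 to 1324 in the other libraries. The 3 flow cells named in the labels each held both kinds of mice. In bulk tissue, fewer cells of a type and less RNA per cell cannot be told apart, and this holds for every result below.

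**Figure D1:**
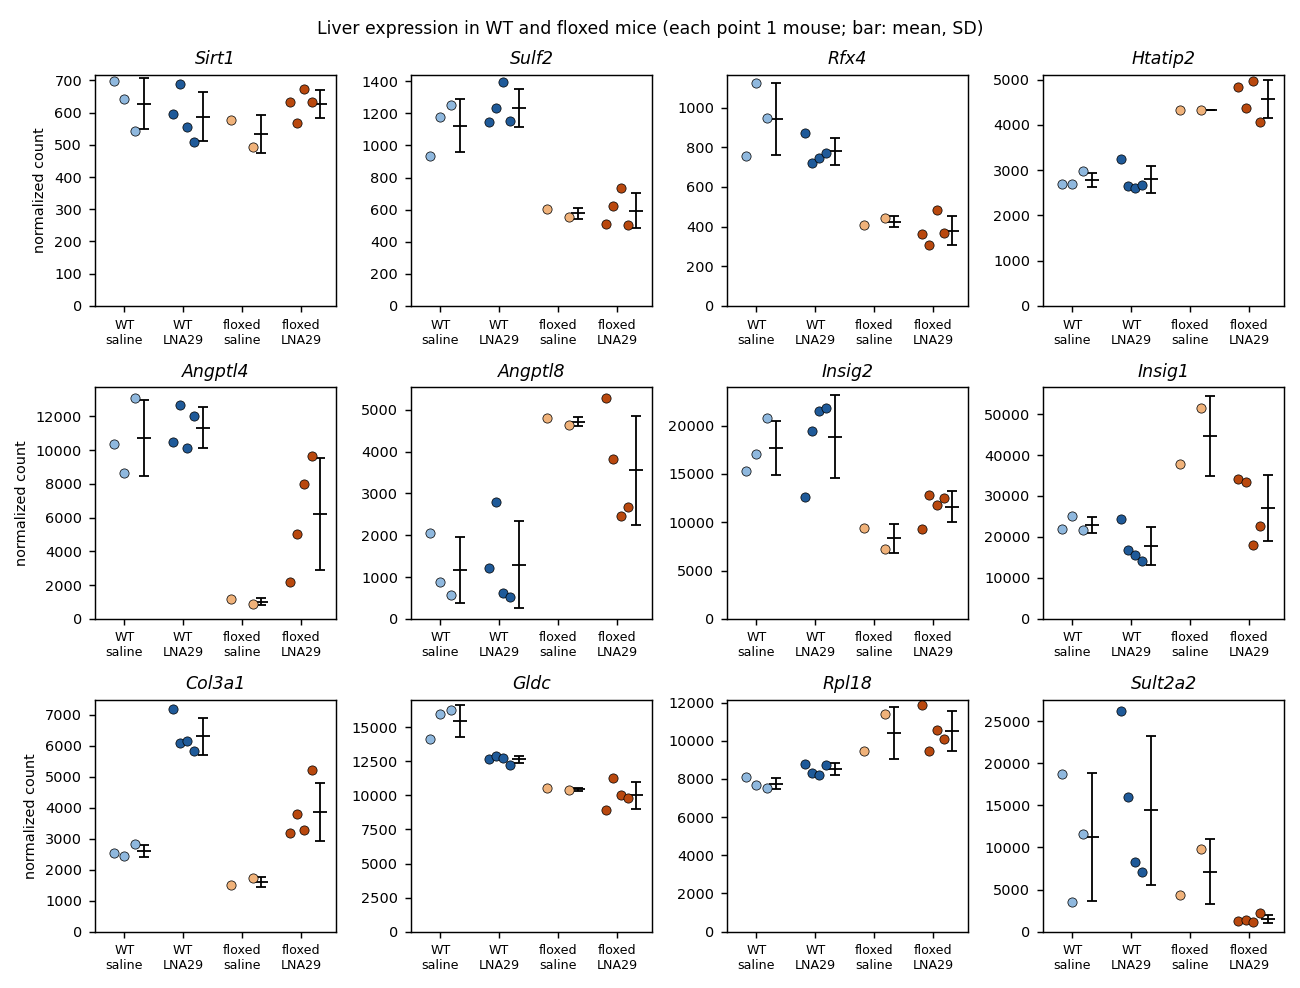
DESeq2-normalized counts of 12 genes in each liver, by background and treatment. Each point is 1 mouse and the bar gives the mean and SD of its group, and the panels show Sirt1 at 493 to 699 in all mice while Sulf2, Rfx4 and Htatip2 do not overlap between WT and floxed mice.

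Floxed livers differed from WT livers at 895 of 15811 genes tested (5.66%) at an adjusted p under 0.05 in limma, with treatment as a covariate. Of these, 415 were higher (2.62% of genes tested) and 480 lower (3.04%) in floxed mice. The median difference of the genes called higher was 0.40 on the log2 scale and that of the genes called lower -0.50, and 94 called genes changed by more than 2-fold, 24 of them up and 70 down. All values of one background lay outside those of the other at 325 genes (2.06%). Among the 895 called genes, 815 had the same sign in all 5 combinations of flow cell and treatment that held both backgrounds. The same libraries gave the calls, so this agreement is no independent support, and the share over all genes is not given. All 895 also had an exact permutation p under 0.05, as 3775 genes did in all, where 0.00143 is the smallest p that 700 arrangements allow. By the wider criteria that the study used for its lists (p under 0.05, adjusted p under 0.2, mean above 50, fold change above 1.2), 2331 genes (14.7%) passed, 1148 up and 1183 down.

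The count of called genes depended on single libraries. It was 546 without WT saline replicate 1, 442 without WT saline replicate 3, 290 without WT saline replicate 4, 460 without WT LNA29 replicate 4, 462 without WT LNA29 replicate 7, 314 without floxed saline replicate 2, 204 without floxed saline replicate 5 and 234 without floxed LNA29 replicate 3. Of 85 called genes that are named below, 48 stayed called whichever library was left out, at adjusted p-values up to 0.0497. Of the 85, 32 each were lost without floxed saline replicate 5 or floxed LNA29 replicate 3, 29 without floxed saline replicate 2, 27, 20 and 17 without WT saline replicates 4, 3 and 1, 21 and 15 without WT LNA29 replicates 4 and 7, and 4 to 11 without each of the other 5 libraries, at adjusted p-values up to 0.125 in limma. These losses count only genes that were tested. Without WT saline replicate 4, 82 of the 85 were tested, and 84 without WT LNA29 replicate 1 or 2, as the others fell below the minimum mean of 10. Below, a lost call is given with the number of single libraries whose loss ended it, among fits that tested the gene.

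The gene with the smallest p among those that fell was Sulf2, an extracellular enzyme that takes 6-O-sulfates off heparan sulfate. It held 936 to 1396 with a median of 1178 in WT and 503 to 736 with a median of 577 in floxed livers. The backgrounds did not overlap, and the fall of 1.02 ± 0.10 on the log2 scale was 2.03-fold (adjusted p = 0.000918 in limma). Rfx4, a transcription factor of the RFX family, held 722 to 1123 with a median of 773 in WT and 305 to 484 with a median of 388 in floxed livers. Its fall of 1.08 ± 0.11 was close to the same in LNA29 mice (-1.05) and in saline mice (-1.13). Ccn2, a matricellular protein also known as connective tissue growth factor, held 499 to 841 in WT and 165 to 423 in floxed livers, a fall of 1.2 ± 0.22 (adjusted p = 0.0127 in limma).

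Other genes that fell with no overlap had roles in growth signals, nucleotides and transport. Lack of overlap was a condition for naming the largest falls and the largest rises. It held at 2.06% of all genes tested. Zc3h12d, which encodes a ribonuclease of the regnase family, fell by 0.95 ± 0.15, and Paqr3, a Golgi protein that holds back Raf kinase, by 0.88 ± 0.12. Rrm2, the small subunit of ribonucleotide reductase, held 240 to 469 in WT and 106 to 237 in floxed livers and fell by 0.88 ± 0.16. Nrg4, a secreted ligand of the ErbB4 receptor, held 186 to 287 in WT and 91.2 to 163 in floxed livers and fell by 0.85 ± 0.13. Slc22a7, an organic anion transporter of the hepatocyte, held 1927 to 2954 in WT and 1012 to 1924 in floxed livers and fell by 0.83 ± 0.13. In Slc22a7 the highest floxed value came closest to the lowest WT value. The other 4 of the 12 largest falls were predicted genes known only by a number.

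Among genes that rose, Htatip2, a protein of the short-chain dehydrogenase family, had the smallest p. It held 2615 to 3248 with a median of 2697 in WT and 4067 to 4978 with a median of 4354 in floxed livers, a rise of 0.68 ± 0.07 (adjusted p = 0.000918 in limma). Proca1 rose most among genes whose backgrounds did not overlap, by 1.17 ± 0.18, from 55.9 to 110 in WT to 131 to 297 in floxed livers. Renbp, an epimerase of amino sugars that also binds renin, held 178 to 245 in WT and 264 to 549 in floxed livers and rose by 0.88 ± 0.14. Smim22 rose by 0.97 ± 0.15 and Nupr1, a small chromatin protein induced by stress, by 0.88 ± 0.17. Cox7a1, the muscle-type isoform of a subunit of cytochrome c oxidase, held 42.7 to 80.1 in WT and 97.9 to 139 in floxed livers and rose by 0.90 ± 0.17.

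Dynll1, a light chain of dynein, rose by 0.81 ± 0.15, Fam166a by 0.76 ± 0.14, Abhd8 by 0.66 ± 0.12 and Mcts2 by 0.66 ± 0.12. These 4, and Arid3b and Fam72a next, were picked from genes that did not overlap between the backgrounds. Arid3b, a DNA-binding protein, rose by 0.73 ± 0.17, and its call was lost without 5 single libraries (WT saline replicate 4, WT LNA29 replicates 4 and 7, floxed saline replicate 5 and floxed LNA29 replicate 3, with adjusted p up to 0.0751 in limma). Fam72a rose by 0.77 ± 0.20 and was lost without 10 (adjusted p up to 0.107). Sulf2, Ccn2, Paqr3, Nrg4, Fam166a, Arid3b and Mcts2 overlap other annotated genes, and below so do Angptl8, Mvd, Dnajb11, Manf, Rps14, Rpl18, Kmo, Sds, Gls2, Cyp2f2, Slc7a2, Col4a1, Cyp2a4, Sult5a1 and Sec23a. Because the strand setting of the counting is not given in the sources used here, reads of such genes and of their partners cannot be told apart.

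**Figure D2:**
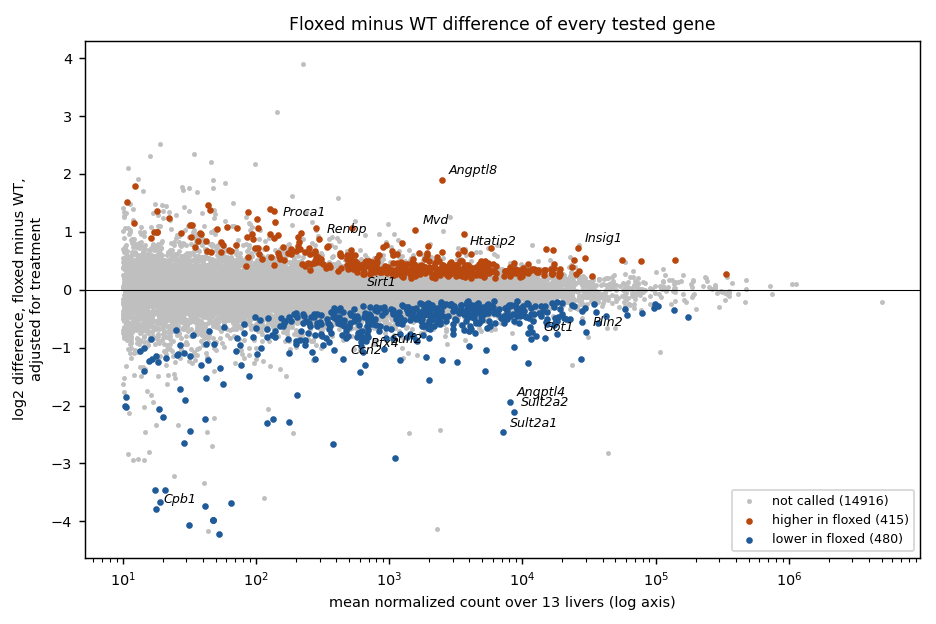
Log2 difference, floxed minus WT and adjusted for treatment, of 15811 genes against their mean DESeq2-normalized count over 13 livers (log axis). Coloured points are the 415 genes called higher and the 480 called lower, and Angptl8 and Insig1 stand out above, and Sult2a1, Sult2a2 and Angptl4 below, among genes with high counts.

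The list of fatty acid oxidation and targets of PPAR-alpha held 27 genes. PPAR-alpha is the nuclear receptor that switches on fat burning. Of the 27 genes, 0 were called higher and 5 lower in floxed livers (background 2.62% and 3.04%). These shares of all genes tested are the background of every list below. The median difference was -0.22 against -0.01 over all genes tested, and -0.12 without floxed saline replicate 2, and 7 members had a positive difference. In LNA29 mice alone 0 members were called. The largest fall was that of Angptl4, a secreted inhibitor of lipoprotein lipase. It held 10374, 8648 and 13098 in WT saline livers and 10487, 12695, 10114 and 12029 in WT LNA29 livers. In floxed mice it held 1180 and 867 after saline and 2195, 5007, 7983 and 9670 after LNA29. The saline floxed livers were lowest, the LNA29 floxed livers were spread, and only the highest of them reached the WT range. The difference was -1.93 ± 0.40 (adjusted p = 0.0223 in limma), -3.38 in saline and -1.06 in LNA29 mice, and the interaction of background and treatment was not called (adjusted p = 0.525).

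Plin2, the coat protein of lipid droplets, held 25951 to 47758 in WT and 16453 to 32748 in floxed livers and fell by 0.72 ± 0.16. Cpt1a, which brings long-chain fatty acids into mitochondria, fell by 0.61 ± 0.15, and Ppargc1a, a coactivator of oxidative genes, by 0.60 ± 0.15. No member of this list was called without floxed saline replicate 2, floxed saline replicate 5 or floxed LNA29 replicate 3, where the highest adjusted p of Angptl4 was 0.0635 in limma. The count of members called lower was 1 without WT saline replicate 4 and 2 without WT saline replicate 1 or 3. It was 3 without WT LNA29 replicate 2, 4 or 7 or floxed LNA29 replicate 5. Without WT LNA29 replicate 2, 1 member was also called higher, and with flow cell as a covariate 1 was called higher and 6 lower. The call of Plin2 was lost without 4 single libraries (adjusted p up to 0.0771 in limma), that of Ppargc1a without 9 (up to 0.1) and that of Cpt1a without 9 (up to 0.0907).

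Other genes whose products respond to feeding moved far, and were chosen after their values were seen. Angptl8, a feeding-induced regulator of lipoprotein lipase, held 2064, 871 and 577 in WT saline and 1227, 2797, 626 and 531 in WT LNA29 livers. Floxed livers held 4795 and 4646 after saline and 5286, 3823, 2449 and 2670 after LNA29. The backgrounds overlapped only through WT LNA29 replicate 2, at 2797, and the rise was 1.90 ± 0.38 (3.74-fold, adjusted p = 0.0185 in limma). Mfsd2a, a transporter of lysophospholipids, held 1188 to 6581 in WT and 544 to 1488 in floxed livers and fell by 1.56 ± 0.31. Both lost the call without floxed saline replicate 5, at adjusted p-values of 0.0557 for Angptl8 and 0.0563 for Mfsd2a.

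Slc25a47, a mitochondrial carrier of hepatocytes, fell by 1.2 ± 0.30 and was lost without 6 single libraries (adjusted p up to 0.101 in limma). The list of glucose output and fasting genes had a median of -0.45 over 17 members, and 0 were called higher and 1 lower. In LNA29 mice alone the median was -0.18 with 0 calls, and in saline mice alone -0.73 with 4 calls, all lower. That 1 was Sds, serine dehydratase, at 8602 to 12442 in WT and 6434 to 8902 in floxed livers and a fall of 0.45 ± 0.08. Pck1, the enzyme that commits carbon to glucose synthesis, was not called. Its values were 149734, 90366 and 141542 in WT saline and 27878 and 30099 in floxed saline livers, but 98880 to 148395 in WT LNA29 and 35833 to 177348 in floxed LNA29 livers. The saline livers did not overlap and the LNA29 livers did, and the difference over both was -1.08 ± 0.36 (adjusted p = 0.0846 in limma).

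Of 19 genes that make fatty acids and triglycerides 0 were called higher and 1 lower, with a median of -0.16. This median was 0.022 in LNA29 mice alone and -0.25 in saline mice alone, and -0.010 without floxed LNA29 replicate 6, -0.037 without floxed saline replicate 5, -0.075 without WT LNA29 replicate 4, -0.077 without WT saline replicate 3, -0.25 without floxed LNA29 replicate 5 and -0.26 without WT LNA29 replicate 2. The call was Pklr, liver pyruvate kinase, which fell by 0.57 ± 0.13 and was lost without 6 single libraries (adjusted p up to 0.0855 in limma). Lpin1, a phosphatidate phosphatase, was at -0.86 ± 0.30 and not called.

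Of 24 genes of cholesterol synthesis and uptake 3 were called higher and 0 lower in floxed livers (background 2.62% and 3.04%). The median was 0.19. In LNA29 mice alone 0 members were called. Mvd, which makes isopentenyl diphosphate, held 847, 1524 and 1500 in WT saline and 1062, 723, 737 and 831 in WT LNA29 livers. Floxed livers held 2258 and 4502 after saline and 2367, 1886, 959 and 1155 after LNA29. The backgrounds did not overlap within saline mice and overlapped among LNA29 mice, and the rise was 1.04 ± 0.24. Insig1, an ER protein that holds back the factor SREBP and is itself an SREBP target, held 14158 to 25179 in WT and 18124 to 51583 in floxed livers and rose by 0.73 ± 0.17. The call of Mvd was lost without 4 single libraries (adjusted p up to 0.0787 in limma) and that of Insig1 without 7 (up to 0.0845).

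Its relative Insig2 moved the other way. Insig2, chosen after its values were seen, held 15312, 17086 and 20752 in WT saline and 12655, 19500, 21513 and 21841 in WT LNA29 livers. Floxed livers held 9401 and 7256 after saline and 9277, 12849, 11746 and 12462 after LNA29. Only WT LNA29 replicate 1, at 12655, lay within the floxed range, and the fall was 0.84 ± 0.14 (adjusted p = 0.0107 in limma). The count of called members in the cholesterol list was 0 without WT saline replicate 4, without floxed saline replicate 5, without floxed LNA29 replicate 3, and with no covariate, and 1 without WT LNA29 replicate 4. The call of Insig2 held in each of these.

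Chaperones of the ER and the heat shock response had a high median but few calls. Of 18 members 2 were called higher and 0 lower, and the median was 0.39. Hspb1, a small heat shock protein, held 1069 to 2300 in WT and 1885 to 2801 in floxed livers and rose by 0.63 ± 0.10 (adjusted p = 0.00968 in limma). Dnajb11, a partner of the chaperone BiP, held 3680 to 5152 in WT and 4161 to 10733 in floxed livers and rose by 0.72 ± 0.19. Its call was lost without 10 single libraries (adjusted p up to 0.103).

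The floxed livers were uneven for these genes. Creld2, an ER protein induced by misfolding, held 1357 to 1820 in the 7 WT livers, but 2318 and 8634 in floxed saline livers and 4053, 6587, 1160 and 3624 in floxed LNA29 livers. Hspa5, which encodes BiP, held 43898 to 54018 in WT livers, 52836 and 105040 in floxed saline livers and 75657, 96208, 29534 and 69153 in floxed LNA29 livers. In both genes floxed LNA29 replicate 6 lay below every WT liver. The differences were 1.26 ± 0.36 for Creld2 (adjusted p = 0.053 in limma) and 0.47 ± 0.23 for Hspa5 (adjusted p = 0.207). Hyou1 and Manf, further ER proteins, were at 0.77 ± 0.24 each and not called. Without floxed LNA29 replicate 6, 8 of the 18 members were called higher and the median was 0.53, and 1 was called higher without each of 10 other libraries. Factors that switch such genes on were called: Xbp1 rose by 0.44 ± 0.10 and Atf4 by 0.49 ± 0.08. Atf4 held 3898 to 5074 in WT and 5414 to 7079 in floxed livers with no overlap, whereas Xbp1 lost its call without floxed saline replicate 5 or floxed LNA29 replicate 3 (adjusted p up to 0.0679). Hspa5, Hyou1, Manf and Xbp1 were chosen after their values were seen.

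Promoters of this list were searched for the ER stress element, to which unfolded protein factors are known to bind, because the uneven members are its textbook targets. The letters searched on both strands, from 250 bases before to 50 bases after each RefSeq gene start (GRCm38.p6), were CCAAT and CCACG with 9 bases between them (ERSE) and ATTGG and CCACG with 1 base between them (ERSE-II). Of 27025 gene symbols with a promoter, 37 (0.137%) held the first and 12 (0.0444%) the second. Of 18 list members 14 had a promoter entry, 4 of them with ERSE (Calr, Creld2, Hsp90b1 and Hspa5) and 1 with ERSE-II (Dnajb11). Among 11201 tested genes with a promoter, 19 held ERSE and 8 held ERSE-II, and 1 of each was called higher (background 2.62%). The windows follow, 5′ to 3′ on the strand of the gene, with the matched ends in capitals, on chr15:88819508-88819550, chr2:34772013-34772055, chr8:84847063-84847105, chr10:86705521-86705563, chr10:86705626-86705668 and chr16:22857840-22857874, in this order.

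Creld2: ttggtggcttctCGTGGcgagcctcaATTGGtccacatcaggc

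Hspa5: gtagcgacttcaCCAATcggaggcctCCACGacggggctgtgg

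Calr: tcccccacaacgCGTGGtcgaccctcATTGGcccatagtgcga

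Hsp90b1, nearer to the start: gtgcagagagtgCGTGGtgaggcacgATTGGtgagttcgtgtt

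Hsp90b1, farther from the start: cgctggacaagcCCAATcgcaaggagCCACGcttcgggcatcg

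Dnajb11: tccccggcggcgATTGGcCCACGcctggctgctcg

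Genes with these letters did not move alike. Creld2 and Dnajb11 had differences of 1.26 and 0.72, and Calr, a calcium-binding chaperone, and Hsp90b1, the HSP90 of the ER, had 0.26 ± 0.13 (adjusted p = 0.231 in limma) and 0.02 ± 0.23 (adjusted p = 0.959). Hsp90b1 holds the element at 2 places and had the smallest difference of the group, with values of 41759 to 69466 in WT and 35166 to 90072 in floxed livers. Its sign turned when single libraries were left out.

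Of 76 cytosolic ribosomal proteins, a list added after values were seen, 38 were called higher and 0 lower, all 76 had a positive difference, and the median was 0.31 (background 2.62% higher). Their summed level was 754200 to 999400 in WT and 950400 to 1196000 in floxed livers. Rpl18, of the large subunit, held 7501 to 8802 with a median of 8228 in WT and 9456 to 11897 with a median of 10328 in floxed livers, a rise of 0.34 ± 0.06 (adjusted p = 0.0145 in limma). Rps14, of the small subunit, rose by 0.44 ± 0.08. Both were called whichever library was left out, but the count of the list ran from 2 without floxed saline replicate 5 to 66 without WT LNA29 replicate 2. It was also 3 without floxed LNA29 replicate 3, 5 without floxed saline replicate 2 or WT saline replicate 4, 7 without WT LNA29 replicate 4, 9 without WT saline replicate 3, 10 without WT LNA29 replicate 7, 17 without WT saline replicate 1 and 20 without floxed LNA29 replicate 6. The median was 0.19 in LNA29 mice alone and 0.51 in saline mice alone.

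Subunits of the proteasome and of early secretion, both lists added after values were seen, had smaller positive medians. Of 32 proteasome subunits 9 were called higher and 0 lower (background 2.62% and 3.04%), with a median of 0.19. The smallest p was that of the ATPase Psmc5, which rose by 0.33 ± 0.08 (lost without 5 single libraries, adjusted p up to 0.0711 in limma). The count of this list was 0 without WT saline replicate 3, WT saline replicate 4, WT LNA29 replicate 7, floxed saline replicate 5 or floxed LNA29 replicate 3, and 1 to 3 without WT saline replicate 1, WT LNA29 replicate 4 or floxed saline replicate 2. Of 38 genes of the ER translocon and of ER-Golgi transport 7 were called higher and 2 lower, with a median of 0.16. The translocon subunit Sec61b rose by 0.42 ± 0.09 (lost without 3 single libraries, adjusted p up to 0.0672 in limma) and the COPII coat protein Sec23a fell by 0.40 ± 0.07. No member of the secretion list was called higher without WT saline replicate 4, floxed saline replicate 5 or floxed LNA29 replicate 3. Among 18 subunits of oxidative phosphorylation 1, cytochrome c (Cycs), was called higher at 0.37 ± 0.09 and 0 lower, with a median of 0.19, which was 0.067 without the trend with transcript length described next, 0.061 in LNA29 mice alone and 0.33 in saline mice alone. That call was lost without 6 single libraries (adjusted p up to 0.0821 in limma).

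Transcript length moved with the difference, and ribosomal protein transcripts are short. Across 15795 genes with a length, Spearman's rho between the longest annotated transcript and the log2 difference was -0.28, and -0.12 in LNA29 and -0.37 in saline mice alone. These correlations are across genes, which share their libraries. The median difference fell from 0.15 in the shortest of 10 groups of genes of equal size, ordered by transcript length, to -0.12 in the longest. Genes called higher had a median length of 1990 bases and genes called lower 4157 bases, against 3069 over all. By library, the level of the shortest against the longest group ran from -0.40 in WT saline replicate 3 to 0.42 in floxed saline replicate 5 on the log2 scale. Without this length trend 770 genes were called, 635 of them among the 895, and 28 of the 76 ribosomal proteins, with a list median of 0.20. Sulf2, Rfx4, Htatip2, Insig2 and Angptl4 kept their calls without the trend. The calls of 10 named genes were lost, at adjusted p-values in limma of 0.11 for Bst2, 0.13 for Apcs and 0.146 for Ttr and of 0.0503 to 0.0578 for Fam72a, Ppargc1a, Cpt1a, Col4a1, Bax, Psmc5 and Sec61b. Calls fell from 9 to 4 among proteasome subunits and from 5 to 3 in the list of fatty acid oxidation.

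**Figure D3:**
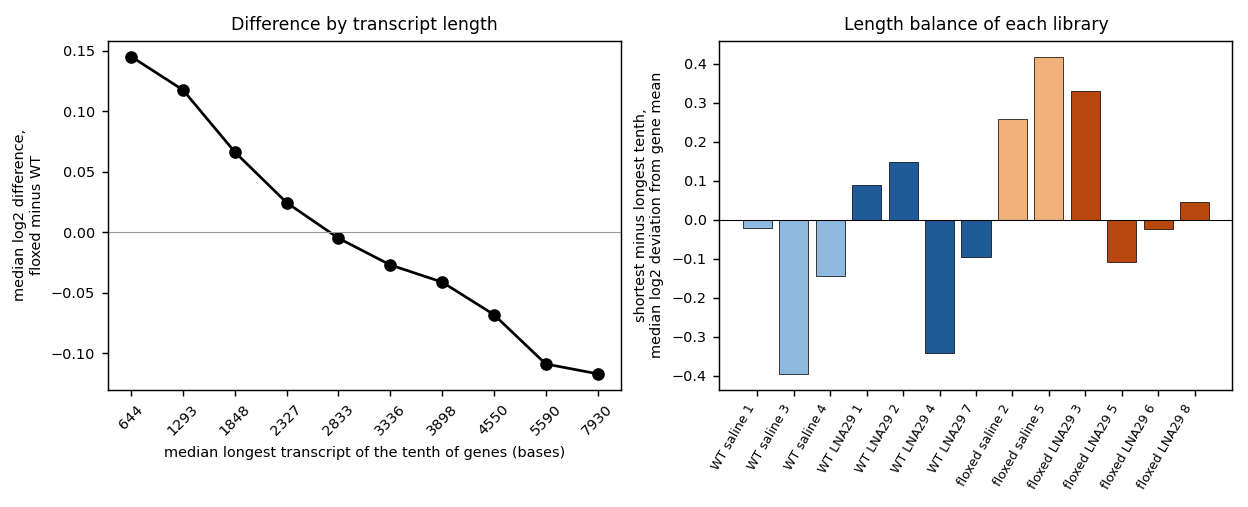
Left, median log2 difference, floxed minus WT, of genes in 10 groups by the length of their longest transcript. Right, level of the shortest group minus that of the longest in each library, as median log2 deviation from each gene's mean, which is highest in floxed saline replicates 5 and 2 and floxed LNA29 replicate 3 and lowest in WT saline replicate 3 and WT LNA29 replicate 4.

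Of 61 genes of amino acid breakdown 0 were called higher and 21 lower in floxed livers (background 2.62% and 3.04%). This list was also added after values were seen. Its median was -0.21, and the count stayed at 21 without the length trend. Kmo, a hydroxylase of the kynurenine pathway of tryptophan, held 15691 to 20113 with a median of 17482 in WT and 9659 to 13667 with a median of 12165 in floxed livers, and fell by 0.56 ± 0.09. Gldc, the decarboxylase of glycine cleavage, held 12264 to 16239 in WT and 8931 to 11280 in floxed livers and fell by 0.42 ± 0.07. Neither gene overlapped between the backgrounds. Aass, which starts the breakdown of lysine, fell by 0.58 ± 0.09, Abat, which breaks down beta-alanine and GABA, by 0.55 ± 0.08, and Gpt2, mitochondrial alanine transaminase, by 0.59 ± 0.10. All 5 were called whichever library was left out, and Aass and Gpt2, like Got1 below, were chosen after their values were seen.

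Got1, cytosolic aspartate transaminase, held 15822, 16270 and 19740 in WT saline and 25199, 11338, 13071 and 10428 in WT LNA29 livers, and 12629 and 11002 in floxed saline and 7514, 5088, 7422 and 9628 in floxed LNA29 livers. The fall was 0.80 ± 0.20, and its call was lost without 7 single libraries (adjusted p up to 0.0787 in limma). The count of the list was 10 without floxed saline replicate 5, 13 without WT saline replicate 4, floxed saline replicate 2, floxed LNA29 replicate 3 or floxed LNA29 replicate 6, and 14 without WT LNA29 replicate 4. In LNA29 mice alone 0 members and in saline mice alone 6 were called.

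Of 22 amino acid transporters tested 0 were called higher and 6 lower (background 2.62% and 3.04%). The list was added after values were seen, and had a median of -0.18 and 4 to 6 calls when single libraries were left out. Slc38a4, which takes up neutral amino acids with sodium, held 41789 to 55422 in WT and 31951 to 40065 in floxed livers with no overlap, and fell by 0.45 ± 0.07. Slc7a2, the carrier of arginine and other cationic amino acids, held 16470 to 28552 in WT and 10922 to 16419 in floxed livers and fell by 0.76 ± 0.13. Slc38a3, a glutamine carrier chosen after its values were seen, fell by 0.43 ± 0.09, and Slc25a15, the mitochondrial ornithine carrier, by 0.49 ± 0.08. Slc25a15 was also the 1 member of 8 urea cycle genes that was called lower, with 0 higher and a median of -0.13.

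Markers of the periportal zone, where blood enters the liver lobule, included enzymes of the same kind. The median of 12 periportal genes was -0.23, with 3 to 5 calls when single libraries were left out. Over all mice 0 were called higher and 3 lower (background 2.62% and 3.04%). They were Sds, Gls2 (liver glutaminase), which held 16812 to 31948 in WT and 12310 to 23954 in floxed livers and fell by 0.50 ± 0.10, and Cyp2f2, a cytochrome P450, which held 34844 to 52398 in WT and 22402 to 35870 in floxed livers and fell by 0.57 ± 0.10. Of 12 pericentral genes 0 were called, with a median of -0.17.

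**Figure D4:**
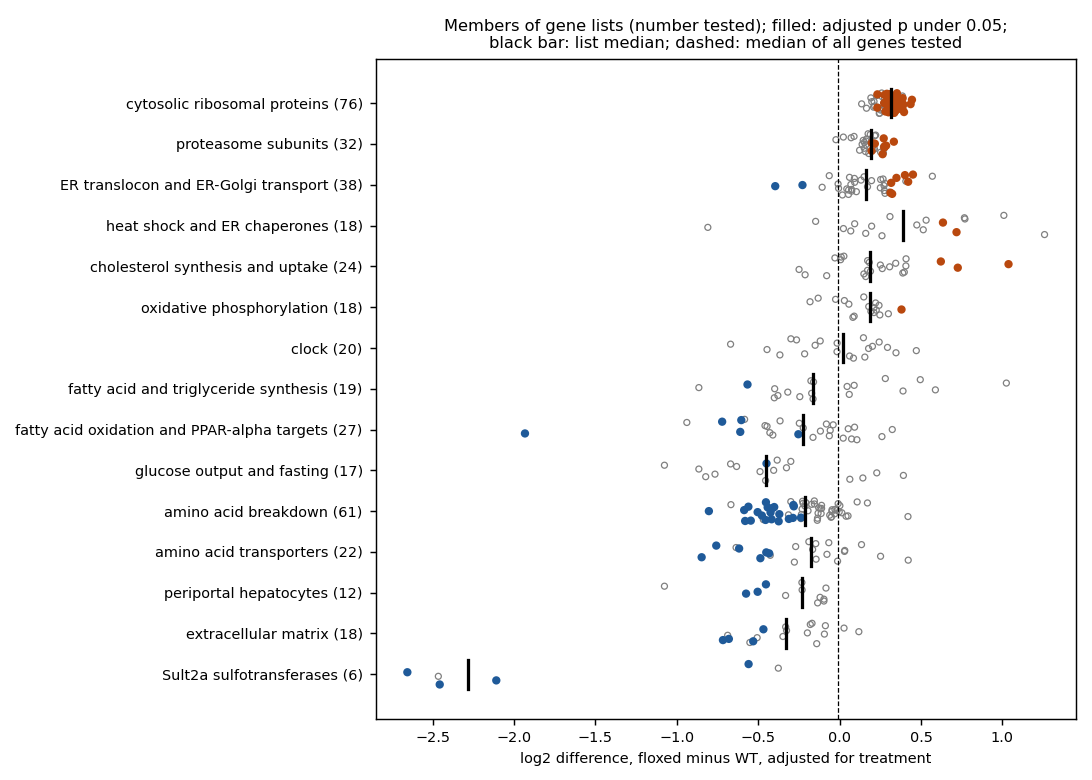
Log2 difference, floxed minus WT and adjusted for treatment, of the members of 15 gene lists. Each point is 1 gene, filled where its adjusted p in limma was under 0.05, black bars are list medians (0.31 for ribosomal proteins, -0.21 for amino acid breakdown) and the dashed line is the median of all genes tested, -0.01.

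Many of the 18 listed genes of the extracellular matrix are targets of miR-29. Of the 18, 0 were called higher and 4 lower in floxed livers (background 2.62% and 3.04%), with a median of -0.33. In LNA29 mice alone 0 and in saline mice alone 1 was called, with medians of -0.29 and -0.30. Col3a1, a fibrillar collagen, held 2526, 2458 and 2816 in WT saline livers and 7184, 6076, 6149 and 5828 in WT LNA29 livers. In floxed mice it held 1493 and 1726 after saline and 3178, 3793, 3271 and 5227 after LNA29. Livers of LNA29 mice were higher than those of saline mice in both backgrounds, and within each treatment every floxed liver lay below every WT liver. The fall was 0.72 ± 0.11 (adjusted p = 0.00875 in limma), and the effect of LNA29 was 1.28 in WT and 1.24 in floxed mice on the log2 scale.

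Fbn1, fibrillin of the elastic fibre, fell by 0.47 ± 0.09 and Col1a2, a chain of type I collagen, by 0.53 ± 0.11. Both stayed called whichever library was left out. Col4a1, of the basement membrane, held 2164 to 6173 in WT and 1579 to 3363 in floxed livers and fell by 0.68 ± 0.18, a call lost without 10 single libraries (adjusted p up to 0.106 in limma). With no covariate for treatment 0 of the 18 were called. Hgf, a growth factor secreted by stellate cells, fell by 0.58 ± 0.15 and was lost without 9 single libraries (adjusted p up to 0.101), and of 8 stellate cell markers it was the 1 called lower, with 0 higher and a median of 0.04. The summed level of these markers was 16740 to 20970 in WT and 20090 to 22650 in floxed livers.

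Sulfotransferases of the Sult2a family, which add sulfate to steroids and bile acids, had large falls. The list was added after values were seen, with a median of -2.28 over 6 members tested. Of these 0 were called higher and 4 lower (background 2.62% and 3.04%). Sult2a2 held 18727, 3473 and 11598 in WT saline and 26226, 15996, 8303 and 7092 in WT LNA29 livers. Floxed livers held 4400 and 9834 after saline and 1295, 1443, 1142 and 2176 after LNA29. The saline groups overlapped, and the LNA29 groups did not overlap. The difference was -2.11 ± 0.52 (adjusted p = 0.0343 in limma), -0.47 in saline and -3.09 in LNA29 mice, and the interaction was not called (adjusted p = 0.525). Sult2a1 was at -2.46 ± 0.64 and Sult2a5 at -2.66 ± 0.58.

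The calls of these near-identical paralogs, whose reads may be shared between them, were lost without 11 single libraries for Sult2a1, 8 for Sult2a2 and 2 for Sult2a5 (adjusted p up to 0.0964, 0.082 and 0.0599 in limma). Sult2a8, a more distant member, was steadier, with 27828 to 41944 in WT and 19399 to 28322 in floxed livers. It fell by 0.56 ± 0.07 (adjusted p = 0.00622), by 0.57 in LNA29 and 0.54 in saline mice. Cyp3a41b, a cytochrome P450 of female liver that was chosen after its values were seen, had a pattern like that of Sult2a2. It held 37 to 119 in floxed LNA29 livers, 473 to 3147 in WT LNA29 livers, 831 and 1374 in floxed saline and 566 to 3034 in WT saline livers, and its call (-2.90 ± 0.76, adjusted p = 0.0428) was lost without 11 single libraries (adjusted p up to 0.0856).

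Other enzymes of steroid and drug metabolism moved in both directions. Of 25 xenobiotic cytochrome P450 genes 1 was called higher and 2 lower, with a median of -0.08. Cyp2a4, a steroid hydroxylase more abundant in female than in male liver, held 10601 to 20072 in WT and 18112 to 25294 in floxed livers and rose by 0.68 ± 0.11, although the values overlapped in saline mice. Cyp17a1, a hydroxylase and lyase of steroid synthesis, held 1871 to 6546 in WT and 997 to 3120 in floxed livers and fell by 1.25 ± 0.24. Of 23 transferases and carboxylesterases 1 was called higher and 3 lower, with a median of 0.01. Ces1d, a carboxylesterase, held 41868 to 52539 in WT and 58392 to 86619 in floxed livers with no overlap and rose by 0.51 ± 0.10. Besides Sult2a8, Sult5a1 fell by 0.73 ± 0.16, a call lost without WT saline replicate 4, floxed saline replicate 2 or floxed saline replicate 5 (adjusted p up to 0.0764 in limma). Sult1e1, an estrogen sulfotransferase at 5.97 to 35.7 in WT and 0 to 6.42 in floxed livers, fell by 2.02 ± 0.53 on the log2 scale. Its call was lost without 8 single libraries (adjusted p up to 0.0795 in limma). Without WT saline replicate 4 or WT LNA29 replicate 1 or 2 it fell below the minimum mean of 10 and was not tested. It reached this minimum only through WT livers, so only a fall could be called.

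Of 23 sex-biased targets of growth hormone 2 were called higher and 1 lower, with a median of 0.03. They were Cyp2a4, Cyp17a1 and Socs2, an inhibitor of the growth hormone receptor that is itself induced by the hormone. Socs2 held 1633 to 3993 in WT and 2964 to 6704 in floxed livers and rose by 0.96 ± 0.20, a call lost without floxed saline replicate 2 (adjusted p = 0.0545 in limma).

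In several groups most members did not pass the test. Of 31 interferon-response genes 1 was called higher, Bst2 at 0.37 ± 0.07, and 0 lower (median -0.09), and of 24 acute phase genes 1 was called higher, Apcs at 0.29 ± 0.08, and 0 lower (median 0.05). The call of Apcs was lost without 10 single libraries (adjusted p up to 0.107 in limma). Of 13 genes of the integrated stress response 1 was called higher, the factor Atf4 itself, and 0 lower (median 0.19). Of 12 p53 targets 1 was called higher and 1 lower (median -0.04), and both were lost without single libraries. Bax, which drives cell death, rose by 0.40 ± 0.09 (adjusted p up to 0.0788 without 1 of 4 libraries) and Trp53inp1, a stress protein, fell by 0.68 ± 0.18 (adjusted p up to 0.125 without 1 of 9). Of 21 proliferation genes Rrm2 was the 1 called lower, with 0 higher (median -0.04).

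No member was called by limma in 8 further lists, which does not show equal levels. These were 20 clock genes (median 0.02), 15 of bile acid synthesis and transport (-0.01), 16 of the MHC (0.01), 11 of the NRF2 response (-0.06), 13 fetal and imprinted genes (0.01), 17 sirtuins and genes of NAD metabolism (0.00), 5 genes that vary between C57BL/6 substrains (0.01), and the pericentral list above. Over all genes 4014 had an unadjusted p under 0.05.

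Among markers of liver cell types and blood cells, few were called. Of 10 markers of sinusoidal endothelium Stab1, a scavenger receptor, was called higher at 0.40 ± 0.08 and 0 were lower (median -0.05), and of 9 hepatocyte markers Ttr, transthyretin, was called higher at 0.28 ± 0.07 and 0 were lower (median 0.05). The call of Ttr was lost without 10 single libraries (adjusted p up to 0.123 in limma). In limma 0 were called among 12 macrophage markers (median -0.15, summed level 14640 to 71860 in WT and 13610 to 36070 in floxed livers), 8 of cholangiocytes (-0.18), 10 of T and NK cells (0.02), 10 of B and plasma cells (0.21), 3 of neutrophils (0.42), 6 of red blood cells (0.31) and 2 of adipocytes (-0.70). No gene of the Y list passed the minimum of 10 normalized counts.

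Pancreatic acinar cells make digestive enzymes. Of 8 of their markers 0 were called higher and 4 lower in floxed livers (background 2.62% and 3.04%). Their summed level was 806.7 to 2377 in WT and 565 to 1261 in floxed livers, ranges that overlap. The 4 called genes were near 0 in floxed livers. They reached the minimum mean of 10 only through WT livers, so only a fall could be called, and these calls are no support for a difference. Cpb1, a carboxypeptidase, held 17.2, 32.7 and 139 in WT saline and 19.8, 1.5, 20.5 and 1.0 in WT LNA29 livers, and was listed at 0 in all 6 floxed livers. Pnlip, pancreatic lipase, held 1.2 to 248 in WT livers and was listed at 0 in all 6 floxed livers. Ctrb1 held 0.7 to 275 in WT and 0 to 5.1 in floxed livers, and Cpa1 held 0 to 153 and 0 to 1.7. The WT livers differed widely among themselves. Without WT saline replicate 4, which held 139, Cpb1 fell below the minimum mean of 10 and was not tested. Among fits that tested the gene, the calls were lost without 1 single library for Cpb1, 5 for Pnlip and 8 each for Ctrb1 and Cpa1 (adjusted p up to 0.0521, 0.0787, 0.0988 and 0.116 in limma). Whether pancreatic tissue was taken along with the liver was not tested.

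The same comparison was made within each treatment, in mice that share no library. In LNA29 mice (4 and 4) 13 genes were called, 0.0824% of 15778 tested, 5 higher and 8 lower, and 1741 had an unadjusted p under 0.05. In saline mice (2 and 3) 489 were called, 3.09% of 15806, 109 higher and 380 lower. The genes called in LNA29 mice included Htatip2, Cyp2a4, Agfg2, Plekhb1 and Unc13b, all higher, and Sulf2, Rfx4, Sult2a1, Sult2a2, Sult2a5, Cyp3a41b and Mrgprb11-ps, all lower. Of them Plekhb1, Unc13b and Mrgprb11-ps are named after their values were seen, with differences over both treatments of 0.76 ± 0.12, 1.06 ± 0.21 and -2.24 ± 0.36. Of the 13 called, 12 had the same sign in saline mice. Of the genes called in saline mice and tested in both, 445 of 484 (91.9%) had the same sign in LNA29 mice, against 67.6% of all 15521 genes tested in both. The median difference of the 415 genes called higher over all mice was 0.34 in LNA29 and 0.49 in saline mice, and that of the 480 called lower -0.40 and -0.60.

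A response to LNA29 that depended on the background was tested as an interaction. No gene passed (0 of 15811, 0%, at an adjusted p under 0.05 in limma), and 1399 had an unadjusted p under 0.05. The smallest p was that of Agfg2, a relative of a nucleoporin-like protein. It held 2744, 2685 and 2547 in WT saline and 1903, 1923, 2104 and 2067 in WT LNA29 livers, and 2433 and 2568 in floxed saline and 3178, 3531, 3107 and 3152 in floxed LNA29 livers. LNA29 livers lay below saline livers in WT and above them in floxed mice, with no overlap in either (interaction 0.78, adjusted p = 0.143 in limma). Next were Tprn (-1.93, adjusted p = 0.284), Ahcyl2 (2.29, adjusted p = 0.463), Rbm41 (1.5, adjusted p = 0.525) and Mybbp1a (-0.63, adjusted p = 0.525). Ahcyl2 held 321 and 334 in floxed saline livers, below the 864 to 1647 of WT saline livers, while LNA29 livers of both backgrounds held 439 to 1211. The count was 1 without WT LNA29 replicate 1 and 3 without floxed LNA29 replicate 3.

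**Figure D5:**
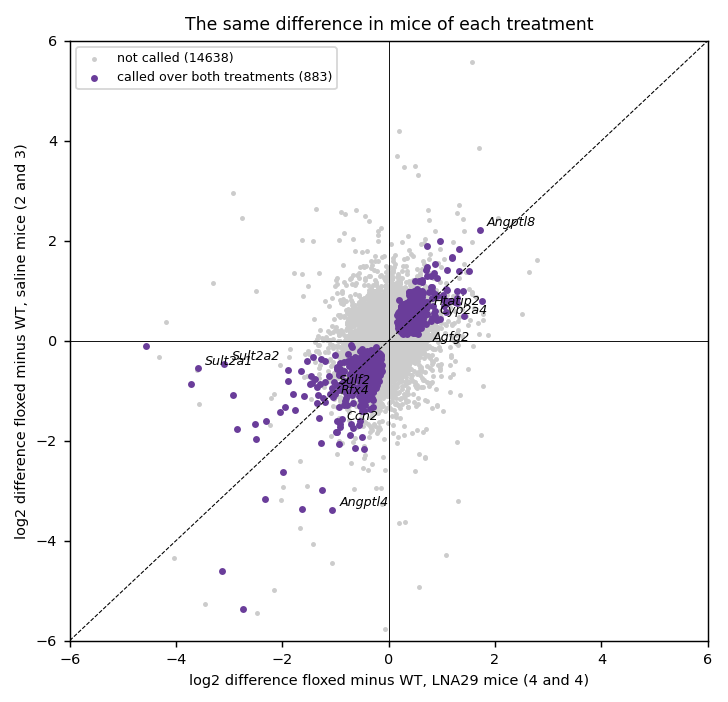
Log2 difference, floxed minus WT, in saline mice (vertical) against LNA29 mice (horizontal) for 15521 genes, of which 4 lie outside the axes. Coloured points were called over both treatments, the dashed line marks equal differences, and Sulf2, Rfx4 and Htatip2 lie near it while Angptl4 lies below and Sult2a1 and Sult2a2 to its left.

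Genes around Sirt1 were looked at because DNA that flanks a targeted allele can differ from the recipient strain. Within 5 Mb of Sirt1 on chromosome 10, 62 genes were tested and 1 was called (1.61%, against 5.66% over all genes). It was Dnajc12, a co-chaperone gene that lies beside Sirt1 at 63382443 to 63410576, with 414 to 575 in WT and 514 to 801 in floxed livers and a rise of 0.39 ± 0.11 (adjusted p = 0.047 in limma). Its call was lost without 12 of the 13 libraries (adjusted p up to 0.108). Ccdc138, at 58497948 to 58576244, held 111 to 153 in WT and 77.4 to 110 in floxed livers with no overlap and was not called (-0.45 ± 0.13, adjusted p = 0.0506). Eif4ebp2, a brake on translation, at -0.42, Dna2 at 0.31 and Herc4 at -0.18 were next by p and not called. Within 20 Mb 17 of 300 genes were called (5.67%). Over chromosomes with more than 2 genes tested, the share called ran from 3.43% on X to 7.39% on chromosome 19 in the nucleus, and was 3 of 15 mitochondrial genes.

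The 8 libraries labelled Sirt1KO come from littermates of the floxed mice and were normalized in a table of their own, so they were set beside the others without a test. After a shift of 0.0313 (log2) that aligned the tables, their mean was nearer to the floxed than to the WT mean at 742 of the 895 called genes (82.9%), and at 57.6% of the 14916 genes not called. Without this shift, Sulf2 held 429.7 to 925 in these livers, Rfx4 243 to 628, Insig2 4547 to 12512 and Htatip2 3139.8 to 4910.2. Rfx4 lay below every WT liver in all 8, and the lowest Htatip2 value lay below 1 WT liver. The highest Sulf2 and Insig2 values also lay below the lowest WT value, but by less than the shift. For Sulf2 and Insig2 a lack of overlap with WT is therefore not established.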

How the data were processed

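Polyadenylated liver RNA was sequenced as single-end reads of 100 bases from TruSeq libraries. The authors aligned the reads to mm10 with STAR 2.5.3a, estimated gene counts with Salmon 0.6.0 and divided them by DESeq2 size factors, and these signal values, called normalized counts here, were deposited in separate tables for WT and floxed mice and for Sirt1KO mice. The annotation, the strand setting and the DESeq2 version are not given in the sources used here. All 13 columns were matched to samples by their names, with 0 columns unmatched. Of 48440 entries, 381 without a name (0.0144% of counts) and 130 with a repeated name (0.0909%) were left out.

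Genes with a mean of at least 10 were tested on log2(value + 1), so that fold changes of low genes are understated. The model had background and treatment as terms and was fitted with limma 3.58.1 (lmFit, eBayes with trend) in R 4.3.3, and genes with a Benjamini-Hochberg adjusted p under 0.05 were called. Exact two-sided permutation tests of single genes rearranged mice within treatments (700 arrangements). Nothing in the labels says more of how mice shared cages or litters, so p-values measure the spread between these mice. The estimated depth limits the precision of genes with few reads. The fit was checked on simulated data with known changes.

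The 12 largest rises and 12 largest falls among called genes with a mean of at least 50 and no overlap between backgrounds were named, with Sirt1 and Nnt, the 3 smallest p-values in each list, any called member of lists of up to 20 genes or of counts of 5 or fewer, the 5 smallest p-values near Sirt1 and of the interaction, and further genes where the text says that they were chosen after their values were seen. Some genes that this rule names are not reported here, but stay in the counts of their lists. The members and gene lists were chosen with earlier results of these data known. The lists of ribosomal proteins, proteasome, ER-Golgi transport, amino acid breakdown, amino acid transporters, urea cycle and Sult2a were added after values were seen and carry no test. Gene positions and lengths came from GENCODE M21 (GRCm38), sequences from RefSeq.

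Other settings tried were a larger pseudocount (10), a minimum mean of 50 or none at all, TMM scaling (trims 0.3 and 0.05), array quality weights, flow cell as a covariate, no covariate, a replicate block, each treatment alone, other windows around Sirt1 and each library left out. Removal of the length trend (lowess, span 0.3) was added after seeing the data. Tables were read with the R package data.table (version 1.17.8), Python 3.11.15, pandas 2.3.3 and numpy 2.4.6, and figures drawn with matplotlib 3.10.9.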

Additional observations from a re-analysis of the deposited data

Results flagged for a closer look

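In 13 of 208 groups of 4 mice over the named genes, 1 mouse lay farther from the nearest of the others, as a share of its group's whole range, than Dixon's 95% critical value, where chance alone gives about 1 in 20. The WT LNA29 group held 7 of them. In it, replicate 1 had a high level of Htatip2 (3248 against 2677 in the next mouse, share 0.902) and of Gpt2 (19005 against 14302, 0.844). Replicate 2 had a low level of Cox7a1 (50.2 against 66.9, 0.942) and a high level of Hspb1 (2300 against 1578, 0.922). Replicate 4 had a low level of Smim22 (94.7 against 146, 0.85) and high levels of Calr (54106 against 44133, 0.86) and Marco (8851 against 1324, 0.88).

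The floxed LNA29 group held the other 6. Replicate 3 had high levels of Nupr1 (178 against 114, share 0.866) and Rrm2 (237 against 167, 0.889). Replicate 5 had high levels of Sult2a8 (22250 against 19753, 0.876) and Agfg2 (3531 against 3178, 0.833). Replicate 8 had a high level of Sult2a1 (1297 against 745, 0.919), and replicate 6 was the only mouse of its group with Cpa1 above 0 (1.7, share 1). Htatip2, Gpt2, Cox7a1, Hspb1, Smim22, Nupr1, Rrm2 and Sult2a8 kept their difference between backgrounds at an adjusted p under 0.05 in limma without any 1 of the 13 libraries.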

How the results depend on the processing

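The 895 called genes became 467 with no minimum mean, 2049 with flow cell as a covariate, 0 with a replicate block (1563 at an unadjusted p under 0.05, 3 residual degrees of freedom), 13 in LNA29 mice alone, 489 in saline mice alone and 204 to 1194 when 1 library was left out, and 2331 genes passed the 4 wider criteria. With flow cell as a covariate all 895 were among the calls. A pseudocount of 10, a minimum mean of 50, TMM scaling, quality weights, no covariate and removal of the length trend gave 888, 1013, 1010, 1182, 678 and 770 calls. The wider criteria gave 0 genes with the block, 173 in LNA29 mice, 3674 in saline mice and 1409 to 2751 without 1 library. Interaction calls ran from 0 to 3 without 1 library, calls within LNA29 mice from 0 to 7, and calls within saline mice from 18 to 347, and these last were 314 with no minimum mean and 254 without the length trend. Near Sirt1 the 1 call became 0 with no minimum mean, quality weights, no covariate, the block or LNA29 mice alone. It became 2 with a minimum mean of 50, 5 with flow cell and 0 to 1 without 1 library. With flow cell these were 5 of 62 genes, where 2049 of 15811 were called over all. In windows of 10 and 20 Mb the calls were 6 of 95 genes (6.32%) and 17 of 300 (5.67%), against 5.66% over all genes. The settings differ in their number of mice, and the cause of these changes was not tested.

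Replicate numbers do not mark a shared litter or day in the labels. The deviations of same-numbered mice correlated at -0.129 to 0.104, so the block pairs mice by number alone.

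Among the named genes, signs turned only for genes that were not called over both treatments. Of the 895 genes called over both, 886 had the same sign in LNA29 mice alone and 892 in saline mice alone. Sirt1 was at 0.045 with quality weights, 0.036 without the length trend, 0.10 in LNA29 mice and -0.073 to 0.042 without 1 library. Nnt was at -0.012 with no covariate, -0.0098 with the replicate block, -0.011 in LNA29 mice and -0.0097 to 0.038 without 1 library. Hsp90b1 was at -0.0014 with quality weights, -0.017 with flow cell, -0.34 with the block, -0.31 in saline mice and -0.11 to 0.21 without 1 library. Agfg2 was at -0.088 in saline mice but was called in LNA29 mice alone (0.70, adjusted p = 0.0222 in limma). In LNA29 mice Tprn was at -0.46, Ahcyl2 at 0.44 and Rbm41 at 0.11. Each of these was called with the other sign in saline mice alone, at 1.47, -1.85 and -1.40 (adjusted p = 0.0254, 0.0193 and 0.0358 in limma).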
